A study of Danio rerio with 32 samples.

Results

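Mitochondrial fatty acid oxidation was followed through 6 of its enzymes (acadvl, acadm, acads, hadh, hadhb and acaa2) in adult zebrafish muscle cells kept in culture for up to 14 days. Every probe set whose annotated symbol, current or earlier, was 1 of these 6 genes was taken. This gave 6 probe sets, 1 per gene, of the 15502 analysed on the Affymetrix Zebrafish Genome Array, where 8793 genes had a symbol.

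Mitochondria shorten fatty acids by repeating a cycle of reactions. An acyl-CoA dehydrogenase opens the cycle by making a double bond, a hydratase adds water, a hydroxyacyl-CoA dehydrogenase oxidizes the product and a thiolase cuts off acetyl-CoA, which feeds the citric acid cycle. Long chains reach the matrix through the carnitine shuttle, and working skeletal muscle draws much of its energy from this pathway. The roles given here for single enzymes are known mainly from mammals.

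The cells were mononuclear myogenic cells (zMNCs) from the dorsal muscle of adult zebrafish, sampled at 6 time-points from day 0 to day 14 (days 1, 4, 7 and 10 lay between). According to the methods of the study, each preparation pooled 15 to 20 fish of a transgenic line in which a skeletal muscle enhancer of α-actin drives a red fluorescent protein. The labels give the same media for all arrays. The cells were expanded in growth medium with fetal bovine serum and recombinant fibroblast growth factor and were then moved to differentiation medium with horse serum, and the labels name no other treatment. In its comparison with mouse cells the study counts the days from myogenic differentiation, while elsewhere it calls day 0 the time of isolation. The day of the change of medium is thus unclear, and its effect cannot be told apart from that of time. Batch 1 held 1 usable array at day 0 and 2 arrays at each later day, all from 1 hybridization run. Batch 2 came from 4 runs, with 3 arrays each for days 0, 1 and 10, 4 arrays for day 4, 5 for day 7 and 2 for day 14. The sources give neither age nor sex of the fish. The study describes its measurements A and B, made for most time-points, as biological duplicates. Neither it nor the labels state that replicates were separate cultures, so the p-values measure the spread between these arrays, which may be technical. Array 0B of batch 1, the day 0 replicate B, was left out because it correlated with no other array above 0.196, while each of the others reached 0.882 or more with at least 1 array.

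The arrays differed in quality along the days. In batch 1 days 0–1 had mean signals before scaling of 21.4 to 49.5, and days 10–14 of 122 to 158. The GAPDH 3′/5′ ratio, which is higher in degraded RNA, ran from 1.74 to 2.43 and from 1.26 to 1.39 in these groups. In batch 2 both ranges overlapped (182 to 636 against 214 to 847, and 3.34 to 9.72 against 2.52 to 12). The mean signals of batch 2 were computed with the labelled target of 1500, while its deposited trimmed mean was 500, with which all of them would be lower by 1 common factor. Of the 31 arrays analysed, 24 were graded good in the labels and the rest poor. The test given below called 6087 of all probe sets over both batches between days 0–1 and days 10–14. It called 4302 in batch 1 and 3875 in batch 2. Of these calls, 56.6%, 57.7% and 51.8% were rises, and the rest were falls. Of 10 leukocyte genes 8 fell over both batches, 6 in batch 1 and 10 in batch 2, and none rose. Their summed signal, carried mostly by lyz (lysozyme) and cd74a with means of 37163 and 14586 on days 0–1 of batch 1, went from between 50359 and 95779 to between 2674 and 27552 in batch 1, and from between 43795 and 72676 to between 1911 and 10795 in batch 2. In these bulk samples, fewer cells of a type and less RNA per cell cannot be told apart, and a rise of an enzyme cannot be told apart from a gain in the share of the cells that express it.

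All values below are quantile normalized array signals, which compare 1 gene between arrays but not 1 gene with another. Changes are log2 differences of these signals after an offset of 32, with standard errors (SE) from limma, and a change counted as called when its p, adjusted by Benjamini-Hochberg over all 15502 probe sets, was under 0.05. The number of arrays limits the precision.

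Over both batches, 5 of the 6 enzymes rose from days 0–1 to days 10–14 and acadm did not pass the test. The rises were 4.08-fold for acaa2, 3.43-fold for acads, 2.85-fold for hadhb, 2.38-fold for acadvl and 1.86-fold for hadh. Of all probe sets on the array, 22.2% rose in this comparison. The median change of the 6 enzymes was 1.38 on the log2 scale and that of all probe sets was 0.07. In batch 1 alone 4 enzymes rose (acaa2, acads, acadvl and hadhb), against 16.0% of all probe sets. In batch 2 alone 3 rose (acaa2, acads and hadhb), against 12.9% of all probe sets. The medians of the 6 enzymes were 1.93 in batch 1 and 0.95 in batch 2, where those of all probe sets were 0.03 and 0.12. No enzyme fell in any of the 3 fits.

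**Figure D1:**
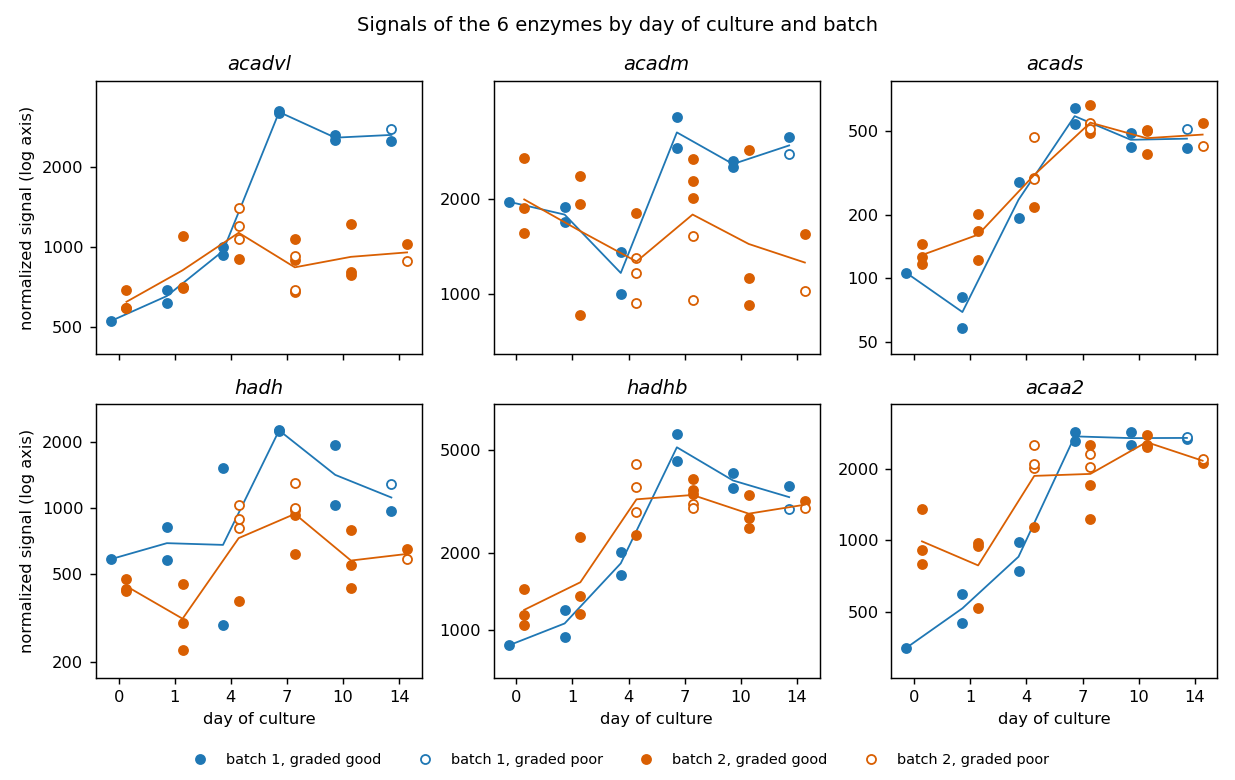
Normalized signal (log axis) of each enzyme on each of 31 arrays by day of culture, with batch 1 in blue and batch 2 in orange. Lines join the means of log2 signals and open circles are arrays graded poor. acads, hadhb and acaa2 ended above their first days in both batches, acadvl reached 2521.2 or more on days 10–14 of batch 1 but 1225 at most in batch 2, and acadm had no common course.

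The acyl-CoA dehydrogenases take fatty acids by chain length. Acadvl, at the inner mitochondrial membrane, handles very long chains. In batch 1 its signal was 524.3 at day 0, 689.7 and 616.4 at day 1, and 933 and 997.6 at day 4. It was 3211.6 and 3258.1 at day 7, 2648.5 and 2528.4 at day 10, and 2521.2 and 2784.9 at day 14. Every array of days 7 to 14 was thus above every earlier array, and day 7 was above days 10 and 14, which overlapped. From days 0–1 to days 10–14 it changed by 2.05 ± 0.20 (SE, limma adjusted p = 0.00018).

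In batch 2 acadvl took another course. On days 0–1 its 6 arrays ran from 587.9 through a median of 694.5 to 1098.1. At day 4 the signals were 900.4, 1074.1, 1204.6 and 1402.3, and at day 7 they were 926.1, 686.7, 1071.8, 674.6 and 891.9. On days 10–14 they were 1225, 801.9, 784, 886.1 and 1024.9. All the groups of days overlapped those next to them in this batch, and the highest mean was that of day 4, at 1145.3 ± 211.8 (SD, n = 4). Days 10–14 differed from days 0–1 by 0.42 ± 0.24, which was not called (limma adjusted p = 0.21).

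Acadm, the medium chain enzyme, did not follow the others. In batch 1 it was 1959.4 at day 0, 1685.7 and 1887.2 at day 1, and 994.9 and 1360.6 at day 4. It then reached 2901.9 and 3640.6 at day 7, 2645.1 and 2517.8 at day 10, and 3150.6 and 2774 at day 14. Day 4 was the lowest point of this course, and each array of days 7 to 14 lay above each earlier one. Between days 0–1 and days 10–14 its difference was 0.58 ± 0.22 (limma adjusted p = 0.073). With the authors' scaling alone it was called as a rise (0.82, limma adjusted p = 0.021).

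In batch 2 acadm ran from 857.4 through a median of 1902.3 to 2692.6 on days 0–1. It was 1807.9, 934.4, 1297.9 and 1166.9 at day 4, and 1529.4, 956.4, 2669.8, 2280.8 and 2015 at day 7. On days 10–14 it was 2869.1, 1120.1, 920.1, 1020 and 1545.2, so that the same days held both the highest array of the batch and 1 of the lowest. All groups overlapped. The change was −0.49 ± 0.25 (limma adjusted p = 0.17), with −0.88 inside run 3 and 0.18 inside run 1, the 2 runs of batch 2 that held both ends of the course. Over both batches it was 0.06 ± 0.21 (limma adjusted p = 0.86).

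Acads, the short chain enzyme, rose in both batches. In batch 1 it was 106.1 at day 0, 58.3 and 81.4 at day 1, 192.3 and 286.8 at day 4, and 639.9 and 535.4 at day 7. It was 487.8 and 419.2 at day 10, and 411.9 and 508.9 at day 14. In batch 2 it ran from 116.3 through a median of 135.7 to 202.5 on days 0–1. These earliest arrays lay below every later array of their batch, in batch 1 and in batch 2 alike.

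At day 4 of batch 2 acads was 217.3, 298.5, 293.7 and 468.6, and at day 7 it was 544.8, 511, 660.2, 537 and 488.1. On days 10–14 it was 505.6, 497.9, 387.2, 423.4 and 540.7. Day 7 was above day 4 with no overlap, while days 10–14 overlapped both. Acads changed from days 0–1 to days 10–14 by 2.12 ± 0.24 in batch 1 (limma adjusted p = 0.00038), 1.47 ± 0.23 in batch 2 (limma adjusted p = 9.5e-05) and 1.78 ± 0.17 over both (limma adjusted p = 3.6e-09).

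The later steps of the cycle were represented by 3 enzymes. Hadh, the 3-hydroxyacyl-CoA dehydrogenase for medium and short chains, was 585.1 at day 0 of batch 1, 820 and 583.2 at day 1, and 293.7 and 1523.6 at day 4. It was 2276.1 and 2233.4 at day 7, 1939.1 and 1030.7 at day 10, and 971.5 and 1281.9 at day 14. The 2 arrays of day 4 stood on either side of all arrays of days 0–1, and day 7 was above all others. Days 10–14 lay above days 0–1 by 0.91 ± 0.46, which was not called (limma adjusted p = 0.17). The call depended on either day 4 array, since without 4A or without 4B the same change had a limma adjusted p of 0.039.

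In batch 2 hadh ran from 225.7 through a median of 424.3 to 475.9 on days 0–1. It was 375.7, 1029.3, 807.9 and 894.5 at day 4 and 1302.5, 1002.2, 926.1, 982.7 and 615 at day 7. On days 10–14 it was 797.9, 552.8, 432.9, 589.2 and 648.7, with only the lowest of these inside the range of days 0–1. Day 7 was above days 0–1 with no overlap, and it overlapped both day 4 and days 10–14. Days 10–14 lay above days 0–1 by 0.76 ± 0.28 in this batch (limma adjusted p = 0.052, and called in 5 of 20 fits that left out 1 array) and by 0.90 ± 0.26 over both (limma adjusted p = 0.0061). Without day 10 array A the change in batch 2 was 0.43 for hadh, 0.22 for acadvl and −0.82 for acadm (limma adjusted p = 0.39, 0.65 and 0.052).

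Hadhb, the subunit of the trifunctional protein that carries its thiolase, rose in both batches. In batch 1 it was 870.1 at day 0, 940.3 and 1194.2 at day 1, and 1637.8 and 2013.8 at day 4. It was 5799.3 and 4548.9 at day 7, 3578.6 and 4067.6 at day 10, and 3647.1 and 2962.7 at day 14. Days 0–1, day 4, days 10–14 and day 7 followed in this order without overlap.

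In batch 2 hadhb ran from 1042.2 through a median of 1255.2 to 2296.9 on days 0–1, where the highest array was 1B. It was 2349.5, 2869.1, 3604.6 and 4434.6 at day 4, and 3100.9, 2979.4, 3502.5, 3851.6 and 3392.6 at day 7. On days 10–14 it was 3341.4, 2732.6, 2493.7, 2979.4 and 3166.5. All arrays from day 4 on were above all of days 0–1, and the later groups overlapped each other. Hadhb changed from days 0–1 to days 10–14 by 1.80 ± 0.23 in batch 1 (limma adjusted p = 6e-04), 1.14 ± 0.24 in batch 2 (limma adjusted p = 0.0015) and 1.51 ± 0.19 over both (limma adjusted p = 4e-07).

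Acaa2, the thiolase that ends the cycle for medium and short chains, rose in both batches. In batch 1 it was 353.5 at day 0, 449.2 and 597 at day 1, and 742.1 and 981.4 at day 4. It was 2624.3 and 2849.1 at day 7, 2524.4 and 2863.3 at day 10, and 2665.2 and 2720.9 at day 14. Days 0–1, day 4 and the later days were apart from each other, and days 7, 10 and 14 overlapped.

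In batch 2 acaa2 ran from 521.4 through a median of 926.4 to 1348.9 on days 0–1. It was 1142.4, 2005, 2102.6 and 2505 at day 4, and 2301.5, 2035.5, 2517.8, 1710.2 and 1228.9 at day 7. On days 10–14 it was 2780.8, 2477.9, 2510.3, 2201.4 and 2119.7, all above days 0–1. Day 4 and day 7 each had 1 array inside the range of days 0–1. Acaa2 changed from days 0–1 to days 10–14 by 2.48 ± 0.23 in batch 1 (limma adjusted p = 0.00016), 1.54 ± 0.28 in batch 2 (limma adjusted p = 0.00043) and 2.03 ± 0.22 over both (limma adjusted p = 2.7e-08).

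**Figure D2:**
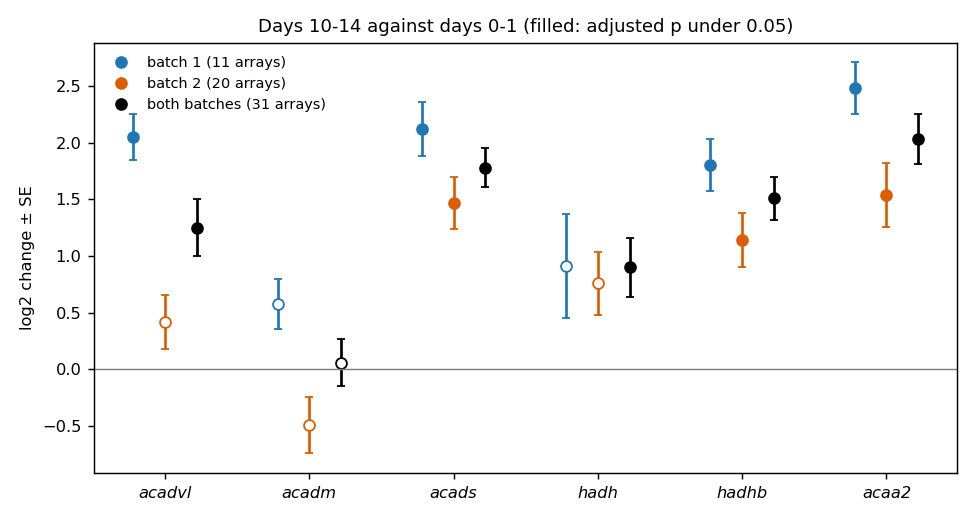
Log2 change ± SE from days 0–1 to days 10–14 for each enzyme in batch 1 (blue), batch 2 (orange) and both batches (black). Filled circles passed an adjusted p of 0.05. Each of the 6 changes shown was larger in batch 1 than in batch 2, from 2.05 against 0.42 for acadvl to 0.91 against 0.76 for hadh, while with the authors' scaling alone that of acads was smaller (1.58 against 1.79).

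The batches were next compared directly. The change in batch 2 minus that in batch 1 was called for acadvl alone among the 6 enzymes, at −1.63 ± 0.31 (limma adjusted p = 0.0036). Of all probe sets, 5.39% were called in either direction in this test. The difference was −1.07 ± 0.35 for acadm (limma adjusted p = 0.065), −0.93 ± 0.38 for acaa2 (limma adjusted p = 0.15), −0.66 ± 0.33 for hadhb, −0.65 ± 0.32 for acads and −0.15 ± 0.52 for hadh, and none of these passed. The gap for acadvl opened after day 4. The means of batch 1 and batch 2 were 965.3 ± 45.7 (SD, n = 2) and 1145.3 ± 211.8 (SD, n = 4) at day 4, but 3234.8 ± 32.9 (SD, n = 2) and 850.2 ± 168.9 (SD, n = 5) at day 7. Batch stands here for the label of the array, the hybridization runs, the array quality and any difference in plating together, which cannot be told apart. The labels give 500000 plated cells for batch 1 and no number for batch 2.

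When whole groups were set side by side, every array of days 10–14 was above every array of days 0–1 for all 6 enzymes in batch 1, where 20.5% of all probe sets showed this. In batch 2 it held for acads, hadhb and acaa2, where 10.5% of all probe sets showed it. Inside the single runs that held both ends of the course, the differences of acaa2 were 1.28 in run 1, 1.75 in run 3 and 2.48 in run 5, which is batch 1. Those of acads were 1.52, 1.58 and 2.12, and those of hadhb were 1.24, 1.29 and 1.80. Acadvl was also higher at the end in each of these runs, by 0.79, 0.34 and 2.05.

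The timing of the rises was then taken apart into steps. Between day 0 and day 1 none of the 6 enzymes was called by limma, none had an unadjusted p under 0.05, and 0% of all probe sets were called (854 at an unadjusted p under 0.05). The changes lay between −0.32 ± 0.28 for acadm and 0.28 ± 0.26 for hadhb. From days 0–1 to day 4, 3 enzymes rose, against 13.7% of all probe sets: hadhb by 1.05 ± 0.20 (limma adjusted p = 0.00034), acads by 1.04 ± 0.18 (limma adjusted p = 0.00011) and acaa2 by 0.95 ± 0.23 (limma adjusted p = 0.0028). Acadvl changed by 0.58 ± 0.26, hadh by 0.56 ± 0.27 and acadm by −0.49 ± 0.22, and none of these was called. Without the arrays graded poor, which leaves 1 day 4 array in batch 2, the change of acaa2 was 0.49 (limma adjusted p = 0.23). Without array 4A of batch 1, that of hadh was 0.92 (limma adjusted p = 0.003).

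From day 4 to day 7 only acads rose, by 0.98 ± 0.22 (limma adjusted p = 0.023), while 0.974% of all probe sets rose. The other 5 enzymes had changes from 0.71 ± 0.32 for acadvl to 1.09 ± 0.34 for hadh. Each had an unadjusted limma p under 0.05, as had 2728 of all 15502 probe sets, and an adjusted p from 0.063 to 0.25. The step was not alike in the batches. In batch 1, with 2 arrays on each of these days, the differences ran from 1.21 for acads to 1.71 for acadvl. Day 4 array A of this batch had a mean signal before scaling of 52.5 and a GAPDH ratio of 1.63. Day 4 array B had 122 and 1.3, and the day 7 arrays had 122 to 161 and 1.19 to 1.3. The part of array quality in this step was not tested. Inside run 3 of batch 2, which held 1 array of day 4 and 2 of day 7, the differences ran from −0.79 for acadvl to 0.34 for hadh, and all 3 arrays were graded poor. Without the arrays graded poor, 5 of the 6 enzymes were called (all but hadh). Acads was lost without array 4A of either batch or without either day 7 array of batch 1 (limma adjusted p from 0.069 to 0.11). Over the alternatives the calls among all probe sets ran from 19 to 962 in either direction, against 295 as reported.

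From day 7 to days 10–14 none of the 6 enzymes was called by limma, where 0.0258% of all probe sets were. Only hadh among the enzymes had an unadjusted p under 0.05, as had 1521 of all probe sets, with a change of −0.75 ± 0.28 (limma adjusted p = 0.4). Its direction was the same inside each run that held both groups, at −0.83 in run 5, −1.09 in run 3 and −0.33 in run 4. The other changes were −0.30 ± 0.21 for hadhb, −0.27 ± 0.22 for acadm, −0.23 ± 0.18 for acads, −0.04 ± 0.27 for acadvl and 0.09 ± 0.23 for acaa2.

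**Figure D3:**
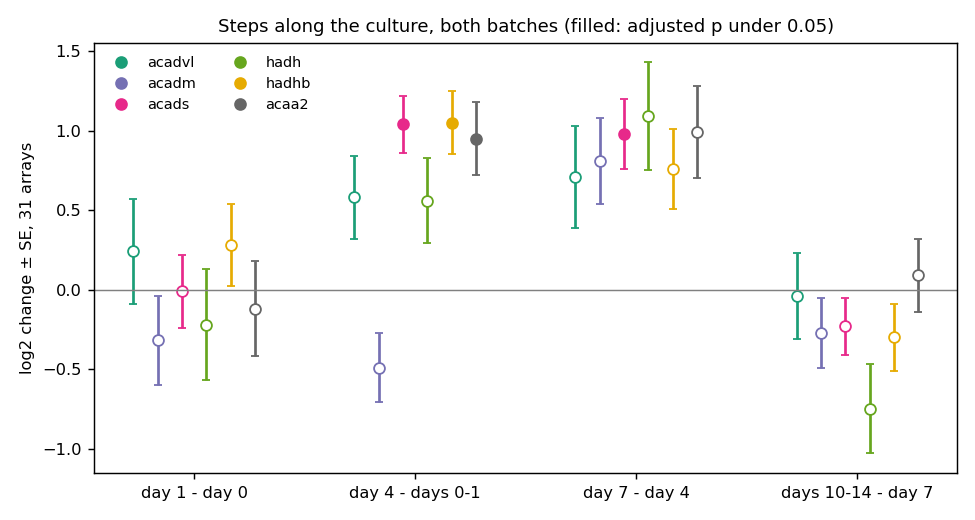
Log2 change ± SE of each enzyme over 4 steps of the culture, from fits of both batches (31 arrays). Filled circles passed an adjusted p of 0.05. Acads, hadhb and acaa2 passed at day 4, acads alone at day 7, and no enzyme passed between day 0 and day 1 or after day 7.

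The likeness of the courses was described by Pearson correlations of log2 signals, centered within batch, over the 31 arrays. Acads and hadhb were most alike (r = 0.93), followed by acaa2 with hadhb (0.90) and with acads (0.89). Acadm stood apart, with r of 0.17 to 0.33 with the other enzymes. Within batch 1 its values were 0.62 to 0.76, and within batch 2 they were −0.22 to −0.12. Hadh lay between, with r from 0.61 to 0.74 with the enzymes other than acadm. Outside the set, the genes closest to the mean course of the 6 enzymes were atic, an enzyme of purine synthesis (r = 0.924), lamp2, a lysosomal membrane protein (0.922), mon1a, which acts in vesicle traffic (0.920), cryl1, a crystallin-related dehydrogenase (0.911), and p2rx4a, an ATP-gated channel (0.907). These points share arrays and scaling, and the values are descriptions.

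**Figure D4:**
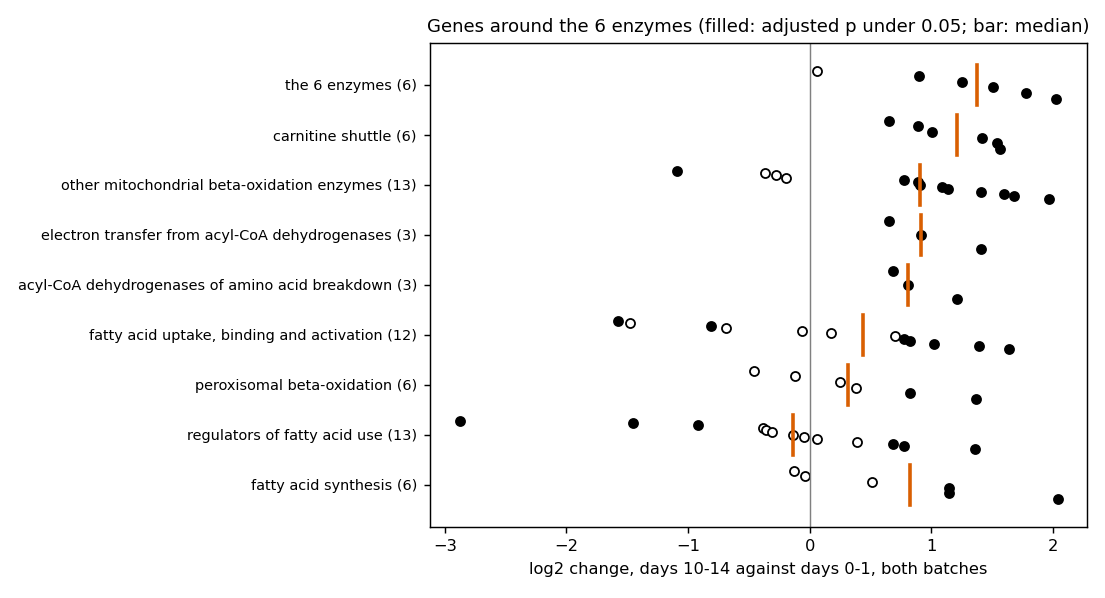
Log2 change from days 0–1 to days 10–14 over both batches for the 6 enzymes and for lists of related genes, with the number measured in brackets. Each circle is a gene, filled where it passed an adjusted p of 0.05, and the bar is the median of the list, 1.38 for the 6 enzymes and 1.22 for the carnitine shuttle.

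Genes that supply or serve these enzymes were described from lists chosen by function. Their counts stand beside the 22.2% of all probe sets that rose over both batches, 16.0% in batch 1 and 12.9% in batch 2. Of the 6087 probe sets called in either direction over both batches, 56.6% rose and the others fell. All 6 measured genes of the carnitine shuttle rose over both batches, with a median change of 1.22. They include cpt2, the inner membrane carnitine palmitoyltransferase (1.54 ± 0.19, limma adjusted p = 3.1e-07), slc25a20, the carnitine carrier (1.42 ± 0.23, limma adjusted p = 1.9e-05), and the outer membrane enzymes cpt1b (1.57 ± 0.30, limma adjusted p = 0.00012) and cpt1ab (1.01 ± 0.25, limma adjusted p = 0.0018). In batch 1 alone 5 of the 6 rose and in batch 2 alone 3. The signal of cpt1b was low, with means of 25.4 on days 0–1 and 240.3 on days 10–14 of batch 1. In batch 2 these were 64.2 and 152.4, and the change of 0.86 was not called (limma adjusted p = 0.059).

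Of 13 other enzymes of mitochondrial beta-oxidation, 9 rose, 1 fell and 3 were not called, with a median of 0.91. The isomerases eci1 and eci2, which prepare unsaturated fatty acids, rose by 1.97 ± 0.18 (limma adjusted p = 1.6e-09) and 1.14 ± 0.17 (limma adjusted p = 4.2e-06). Hadhab, an alpha subunit of the trifunctional protein and so the partner of hadhb, rose by 1.68 ± 0.23 (limma adjusted p = 1.1e-06). Acadl, the long chain dehydrogenase, rose by 0.91 ± 0.16 (limma adjusted p = 5.9e-05). The gene that fell was echdc2, a member of the enoyl-CoA hydratase family (−1.09 ± 0.27, limma adjusted p = 0.0022). It was named after its value was seen.

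The electron acceptors of the acyl-CoA dehydrogenases rose as well, 3 of 3 measured. Etfdh, which passes the electrons to ubiquinone, rose by 1.41 ± 0.15 (limma adjusted p = 3.8e-08), and etfa and etfb, the subunits of the electron transfer flavoprotein, rose by 0.92 ± 0.17 (limma adjusted p = 8.4e-05) and 0.65 ± 0.16 (limma adjusted p = 0.0014). The acyl-CoA dehydrogenases that break down amino acids also rose, 3 of 3 measured, namely acad8 (1.21 ± 0.17), gcdhb (0.81 ± 0.18) and ivd (0.69 ± 0.22). Their limma adjusted p-values were 2.5e-06, 0.00079 and 0.012. In batch 1 all 3 rose, and in batch 2 acad8 alone (0.88, limma adjusted p = 0.013), where ivd changed by 0.16 (limma adjusted p = 0.68). The carnitine shuttle, the other beta-oxidation enzymes and electron transfer had 6, 13 and 3 measured genes. Of these genes together, 16 rose in batch 1 and 12 in batch 2. With array 0B included 10 rose in batch 1, and 6 rose in batch 2 without day 10 array A. The calls among all probe sets, in either direction, also dropped under these settings. They went from 4302 to 1737 in batch 1 and from 3875 to 2455 in batch 2.

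Genes for the uptake, binding and activation of fatty acids moved in both directions. Of 12 measured genes 5 rose, 2 fell and 5 were not called, with a median of 0.44. In batch 1 alone 3 rose and 1 fell, and in batch 2 alone 1 rose and 2 fell. Fabp3, the fatty acid binding protein of muscle in mammals, rose by 1.39 ± 0.24 (limma adjusted p = 4.2e-05), and the transporter slc27a1a rose by 1.64 ± 0.30 (limma adjusted p = 8.1e-05). The acyl-CoA synthetase acsl4a fell by 1.58 ± 0.29 on the log2 scale (limma adjusted p = 6.7e-05), and slc27a6 fell by 0.81 ± 0.21 (limma adjusted p = 0.0027). Slc27a6 was called in neither batch alone (limma adjusted p = 0.052 and 0.095), and slc27a1a was not called in batch 2 alone (0.069). Of 6 measured genes of peroxisomal beta-oxidation 2 rose, decr2 (1.37 ± 0.19, limma adjusted p = 2.1e-06) and scp2b (0.83 ± 0.25, limma adjusted p = 0.0085), and none fell. Both rose in batch 1 and only decr2 in batch 2, where scp2b changed by 0.12 (limma adjusted p = 0.76) after 1.60 in batch 1.

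Among 13 measured regulators of fatty acid use, 3 rose and 3 fell, with a median of −0.14, while 22.2% of all probe sets rose. In batch 1 alone 1 rose (the kinase pdk2b) and 1 fell (rxrga). In batch 2 alone 1 rose (prkaa1) and 3 fell (ucp3, ppargc1b and rxrga). The values that follow are over both batches. Ucp3, a mitochondrial carrier of muscle, fell by 2.88 ± 0.43 on the log2 scale (limma adjusted p = 4.2e-06). The coactivator ppargc1b changed by −0.92 ± 0.20 (limma adjusted p = 0.00049) and the retinoid receptor rxrga by −1.45 ± 0.33 (limma adjusted p = 9e-04). Prkaa1, a catalytic subunit of the AMP-activated kinase, rose by 0.78 ± 0.18 (limma adjusted p = 0.00098).

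Markers of cell types were set beside these results and beside the same shares of all probe sets, which are shares of rises. Counts of falls stand beside the 6087 of all 15502 probe sets called over both batches, of which 56.6% rose and the others fell. Of 17 measured skeletal muscle genes 6 rose and 2 fell, and the rises include acta1a (3.44 ± 0.52, limma adjusted p = 5.8e-06), desma (2.87 ± 0.46, limma adjusted p = 1.2e-05) and myog (1.77 ± 0.36, limma adjusted p = 0.00026). The genes that fell were mylz3, a myosin light chain (−2.51 ± 0.64, limma adjusted p = 0.0025), and ckmb, a muscle creatine kinase (−2.15 ± 0.55, limma adjusted p = 0.0027). Both were called in batch 2 alone (limma adjusted p = 0.00051 and 0.0059) and neither in batch 1 alone (0.17 and 0.2). The summed signal of the list in batch 1 went from between 8557 and 39941 at the start (median 33942) to between 14478 and 133093 at the end (median 19573), and was 7877 to 34267 and 4179 to 26027 in batch 2, so it overlapped in both. Of 4 measured genes of slow or cardiac muscle only mb (myoglobin) was called, at −5.18 ± 0.35 (limma adjusted p = 2.2e-11). Tnnt2a, tnnc1a and myl7 of this list were dim, with mean signals of 36.9, 49.4 and 42.9 over both batches. Smyhc1, a slow myosin heavy chain counted in the skeletal muscle list, rose by 2.4 ± 0.54 over both batches (limma adjusted p = 0.00072). It rose by 4.05 in batch 1 (limma adjusted p = 0.0029), from a dim mean of 20.2 at the start to 1168.4 at the end. In batch 2 its change of 1.09 was not called (limma adjusted p = 0.079). Of the leukocyte genes marco and csf1ra had changes of 0.81 and 0.62 in batch 1, which were not called. Of 6 fibroblast genes 2 rose, fn1a and dcn, of 3 endothelial genes 2 fell, and of 5 erythrocyte genes 2 fell.

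Of 3 measured adipocyte genes cidec rose (1.41 ± 0.34), while cfd (−3.98 ± 0.41) and cebpa (−0.77 ± 0.29) fell, with limma adjusted p-values of 0.0014, 1.4e-08 and 0.036. Cfd fell in each batch. Cebpa changed by 0.02 in batch 1 (limma adjusted p = 0.98) and by −1.53 in batch 2 (limma adjusted p = 0.00054). Cidec rose in batch 1 (2.04, limma adjusted p = 0.0055) and was not called in batch 2 (0.82, limma adjusted p = 0.17). Of 8 liver genes only tfa (transferrin) rose, by 4.35 ± 0.49 (limma adjusted p = 6.6e-08). Fabp10a, a defining liver gene, had means of 66.5 and 501.4 at the start and end of batch 1, and 69.8 and 45.4 in batch 2, and was not called. Its log2 change in batch 1 was 0.58 ± 1.2 (limma adjusted p = 0.75). The summed liver signal in batch 1 went from between 631 and 1440 at the start to between 1261 and 26600 at the end. The median of the 4 late arrays was 1551, so 1 array made the high end of this range. In batch 2 the sum was 589 to 1206 and 2321 to 23103, with a median of 14301 at the end. Tfa carried most of the late sum in batch 2, with means of 307.1 and 12482.5. In that batch alone fgb fell (−2.16 ± 0.47, limma adjusted p = 0.0018). The part of any of these cell types in the rises of the 6 enzymes was not tested.

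The mean level of the 6 enzymes also moved with array quality. Over the 11 arrays of batch 1 its correlation with the log2 mean signal before scaling was 0.90 and with the log2 GAPDH ratio −0.87. Over the 20 arrays of batch 2 these were 0.43 and −0.54. These values are descriptions, since the days move with both measures, and the part of array quality in the rises was not tested.

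**Figure D5:**
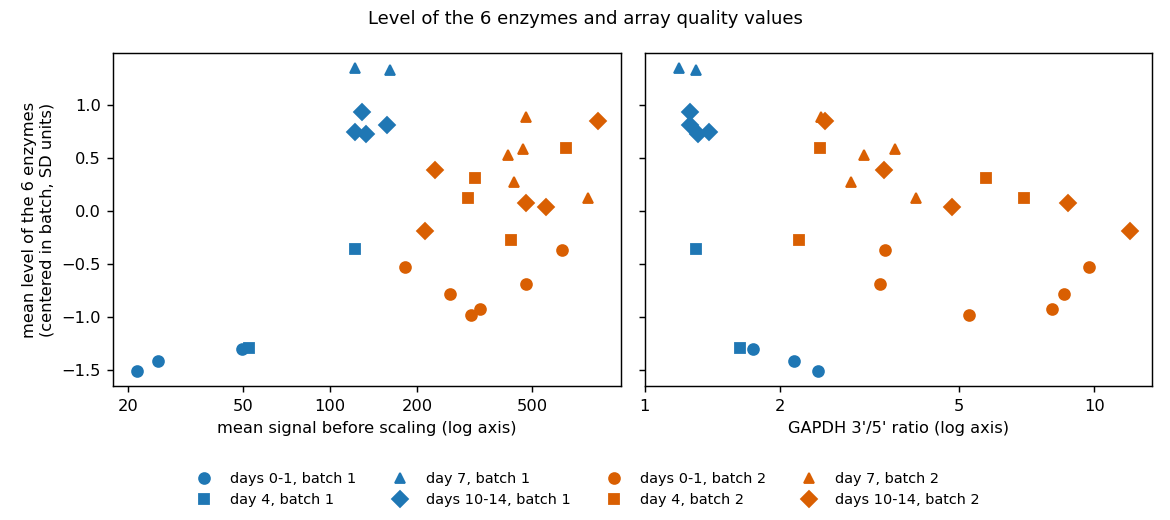
Mean level of the 6 enzymes, each centered within batch and divided by its SD, against the mean signal before scaling (left) and the GAPDH 3′/5′ ratio (right), both on log axes, for 31 arrays. Batch 1 (blue) was dimmest on days 0–1, at 21.4 to 49.5, while the days of batch 2 (orange) overlapped in both measures.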

How the data were processed

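RNA of cultured zebrafish muscle cells was measured on 32 Affymetrix arrays, of which 31 were analysed. Per the labels, MAS5 (no version stated) gave the authors' linear intensity values. The trimmed mean of the deposited intensities (2% of each tail left out) was 500 on all arrays, also where the labels give a target of 1500. The 115 control probe sets of 15617 were left out, and 0 columns lacked a sample. Each array was brought by quantile normalization to the mean distribution of 10 batch 1 arrays graded good, and log2 was taken after adding 32.

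Two-sided limma tests (version 3.58.1, R 4.3.3, lmFit with eBayes) mostly had 4 groups of days. Day 1 against day 0 was fitted with each day as its own group, and the batch difference with the 4 groups in each batch. The hybridization run was a covariate wherever there were several. The fits with 4 groups had 7 residual degrees of freedom in batch 1, 13 in batch 2 and 23 over both. That of day 1 against day 0 had 21 and that of the batch difference 20. Symbols came from the array annotation, updated through the Entrez ID for 10711 probe sets. Of each list, up to 4 genes with the smallest p were named, and each gene was represented by its brightest probe set. Other genes named, among them all cell type markers and fabp10a, were chosen after their values were seen. The members and lists were chosen with earlier results of these data known. Alternatives changed the scaling, offset, filter, weights, covariates and arrays. Replicate letters were not taken to pair the arrays.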

Additional observations from a re-analysis of the deposited data

Results flagged for a closer look

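In acadvl, day 1 array B of batch 2 stood apart from the other arrays of days 0–1 in that batch, with a signal of 1098.1 where the other 5 ran from 587.9 to 704.6. It was the only outlying array among 30 groups of 4 to 6 arrays tested by Dixon's criterion, which flags about 1 in 20 groups by chance. The array also had the highest signals of hadhb (2296.9) and acads (202.5) and the lowest of acadm (857.4) among the arrays of days 0–1 in batch 2. Its mean signal before scaling (182) was the lowest of batch 2, and its GAPDH ratio (9.72) was the highest of days 0–1 in that batch.

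The change of acadvl from days 0–1 to days 10–14 differed between the batches by the test of the difference itself, with −1.63 ± 0.31 in batch 2 minus batch 1 (limma adjusted p = 0.0036). When each array was left out in turn the difference stayed between −1.84 and −1.52, with a limma adjusted p from 0.0022 to 0.0088.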

How the results depend on the processing

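From days 0–1 to days 10–14 the count of called enzymes stayed at 5 over both batches under every alternative run. It was 4 or 5 in batch 1, with 4 to 5 when arrays were left out in turn. The enzyme added was acadm with the authors' scaling alone (0.82, limma adjusted p = 0.021) or a larger offset (0.55, limma adjusted p = 0.023). It was also acadm with trend and robust eBayes (limma adjusted p = 0.046) and without dim probe sets (0.05 as rounded). Without array 4A or without 4B the enzyme added was hadh. In batch 2 the count was 3 to 5, with 5 under array weights and 3 to 4 with arrays left out. The enzyme added there was hadh, for example with the authors' scaling alone (limma adjusted p = 0.027), a larger offset (0.043) or without dim probe sets (0.038). Under array weights both hadh (limma adjusted p = 0.01) and acadvl (0.024) were added. At day 4 the count was 2 to 4 (under array weights 4, of which acadm fell), with 3 to 4 with arrays left out. The step from day 4 to day 7 was the least stable: 1 enzyme was called, against 0 with the authors' scaling alone or with day 0 replicate B of batch 1 included, 2 with a larger offset or without dim probe sets (mean signal under 100), 4 with array weights, 5 without arrays graded poor, and 0 to 4 with arrays left out. The batch difference was called for 1 enzyme, for 2 with the authors' scaling alone, with a larger offset or without dim probe sets, and for 1 to 2 with arrays left out. The later step and the first day kept 0 calls throughout. With the replicate letter as a replicate block the counts were 4, 3, 5, 3, 1, 0, 0 and 1, as without it, but the batch difference was called for 189 of all probe sets and not 835. Same-lettered arrays of 1 run had correlations of −0.33 to 0.07 in batch 1 and −0.02 to 0.61 in batch 2 (8 of 14 pairs over 0.1), and those of different runs −0.68 to 0.30, so the letters were not taken to pair the arrays.

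Directions turned only in changes that were not called. These were acadm over both batches (−0.034 with array weights, −0.01 to 0.18 with arrays left out), and from day 7 to days 10–14 acaa2 (−0.052 without arrays graded poor) and acadvl (0.13 without the run, −0.21 to 0.12 with arrays left out). From day 0 to day 1 acads was 0.20 with the authors' scaling alone, 0.013 with a larger offset, 0.084 with array weights, 0.15 with replicate B of batch 1 included and −0.18 to 0.13 with arrays left out, acadm was 0.79 with that replicate included, and acaa2 was −0.39 to 0.13 with arrays left out. In the batch difference acads was 0.21 with the authors' scaling alone and hadh −0.476 to 0.058 with arrays left out. The cause of these shifts was not tested.

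Over all probe sets the calls in either direction ranged over the alternatives from 1737 to 6400 in batch 1 (4302 as reported), 2455 to 5843 in batch 2 (3875), 2285 to 4561 at day 4 (3964), 19 to 962 from day 4 to day 7 (295), 0 to 93 after day 7 (4), 0 to 30 for day 1 (0) and 189 to 1791 for the batch difference (835). With the authors' scaling alone the share of calls that were higher was 32.7% and not 57.7% in batch 1, 45.4% and not 56.6% over both, and 76.9% and not 46.3% for the batch difference, and the median change of all probe sets in batch 1 was −0.43 and not 0.03. The order of acaa2 and acads turned in batch 2 with the authors' scaling alone (1.58 and 1.79). Acads (median 81.4 on days 0–1 of batch 1) and cpt1b (mean 25.4) were dim at the start of the culture, which limits the precision of their changes.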

Other observations

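Fatty acid synthesis runs opposite to oxidation, in the cytosol. None of the 6 measured genes of this list fell over both batches, and the median change was 0.83. While 22.2% of all probe sets rose, 3 of these 6 genes did. The 3 that rose were slc25a1a, the citrate carrier (1.15 ± 0.18, limma adjusted p = 1.1e-05), scd, the stearoyl-CoA desaturase (2.04 ± 0.44, limma adjusted p = 0.00044), and aclya, an ATP citrate lyase (1.15 ± 0.28, limma adjusted p = 0.0016). None of the 3 was called in both batches. In batch 1 alone scd and aclya rose and slc25a1a was not called (limma adjusted p = 0.053), against 16.0% of all probe sets. In batch 2 alone slc25a1a rose and scd and aclya were not called (limma adjusted p = 0.37 and 0.15), against 12.9%. The change of scd was 3.73 in batch 1, where its mean signal was 41.6 on days 0–1 and 936.0 on days 10–14, and 0.50 in batch 2, where it was 32.2 and 70.0. Whether this difference passed a test between the batches was not examined. Genes of the pyruvate dehydrogenase kinases, which spare glucose when fatty acids are used, also rose over both batches, pdk2b by 1.36 ± 0.41 (limma adjusted p = 0.0089) and pdk4 by 0.69 ± 0.27 (limma adjusted p = 0.045). In batch 1 alone pdk2b was called (limma adjusted p = 0.012) and pdk4 was not (0.059), and in batch 2 neither was (0.15 and 0.42). Both were named after their values were seen.

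On array 0B of batch 1, which entered no comparison, the signals were 597 for acadvl, 21.4 for acadm, 43.8 for acads, 560 for hadh, 374.9 for hadhb and 1749.2 for acaa2. On array 0A of the same batch and day they were 524.3, 1959.4, 106.1, 585.1, 870.1 and 353.5.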
